A study of Ptychidio jordani with 7 samples.

Results

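RNA sequencing of the caudal fin was compared with that of 6 other tissues in Ptychidio jordani, the ratmouth barbel, a carp relative that lives in fresh water. The fin is 1 of 7 samples, and all 26107 genes of the expression table were compared. The other samples are gill, heart, muscle, kidney, liver and spleen, with 1 sample per tissue. All 7 sample titles call the RNA sequencing normal. The labels give no treatment, strain, sex or age, and do not say whether the tissues came from 1 fish or whether fish were pooled. The question was which genes the fin carries at a higher or a lower level than the rest of the body, measured against both the mean and the highest of the other 6 libraries.

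A fish fin is a fold of skin stretched over bony rays. The skin has a living, moist epidermis of several cell layers, held together by desmosomes and anchored by hemidesmosomes to a collagen-rich dermis. The rays are jointed bones laid down by scleroblasts and reworked by bone-resorbing cells, and between them run nerves, vessels, fibroblasts and pigment cells. The most posterior Hox genes are known from zebrafish for their part in building the fin skeleton.

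Levels are FPKM, a count of sequenced fragments scaled to the length of the gene and to the size of the library. Differences are on the log2(FPKM + 1) scale, and every fold is a ratio of FPKM + 1, which understates the change of genes with low values. The added 1 is the pseudocount. Because there was 1 sample per tissue, no difference could be set against a spread between replicates and no test was possible. Calls rest on fixed limits, and they describe these libraries rather than the tissues in general. Gene names are the authors' names of the nearest known protein, so that several genes share a name, and the identifier tells them apart. Read totals were not given in the table, so the depth behind each value is unknown.

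The library labelled spleen did not behave as a spleen. Its profile correlated with that of liver at a Pearson coefficient of 0.960 over genes, and liver genes held 21.9% of its summed FPKM against 24.1% in liver. It is therefore called the library labelled spleen. Egg coat and oocyte genes held 11.5% of the summed FPKM in muscle and 6.02% in kidney, against 1.297% in fin and 0.00753% in gill. Values against the highest other library, and some counts made without these libraries, are therefore given. Across genes the fin library was closest to gill (Pearson coefficient 0.783), followed by kidney (0.686), heart (0.623), muscle (0.616), the library labelled spleen (0.548) and liver (0.495). These coefficients run over genes, which are not independent replicates.

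The marker genes given for the fin library belong to the same comparison, so their levels describe it and are no separate check of the label. The keratin gene KRT19 (Pjo00043) had 1465 FPKM in fin and at most 0.11 FPKM elsewhere, and the small proteoglycan gene LUM (Pjo04404) had 527 FPKM in fin and at most 8.73 FPKM elsewhere. Genes that define heart, fast muscle and yolk production were at or near 0 in fin. The cardiac genes MYH7 (Pjo01657) and nppa (Pjo08642) had 0.15 and 0 FPKM, the yolk precursor gene vtg1 (Pjo21814) had 0.48 FPKM, and the fast muscle light chain gene MYLPF was at most 0.3 FPKM. Those of blood and egg coat were not: the globin gene hba (Pjo03032) had 2811 FPKM in fin against 67752 FPKM in kidney, and a ZP3 locus, for an egg coat protein, had 1168 FPKM in fin against 9431 FPKM in muscle. Actinodin genes, which build the horny fibres of the fin edge, had no match among the symbols of the table.

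Fin-enriched genes were defined as those with at least 10 FPKM in fin and at least 5-fold more than in the highest of the other 6 libraries. There were 253 such genes, or 0.969% of the 26107 genes compared. They held 13.5% of the summed FPKM of fin, against 0.998% in gill and at most 0.197% in the other 5 libraries. A larger share in fin follows from the rule that picked these genes. Their median level was 48.5 FPKM in fin, with a median ratio of 9.79 over the highest other library. The ratio was at least 10-fold in 123 genes and at least 100-fold in 12. Every other library was under 1 FPKM for 78 of the 253, and all 6 listed 14 of them at 0. In bulk tissue, fewer cells of a type and less RNA per cell cannot be told apart, and this holds for every level given here.

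**Figure D1:**
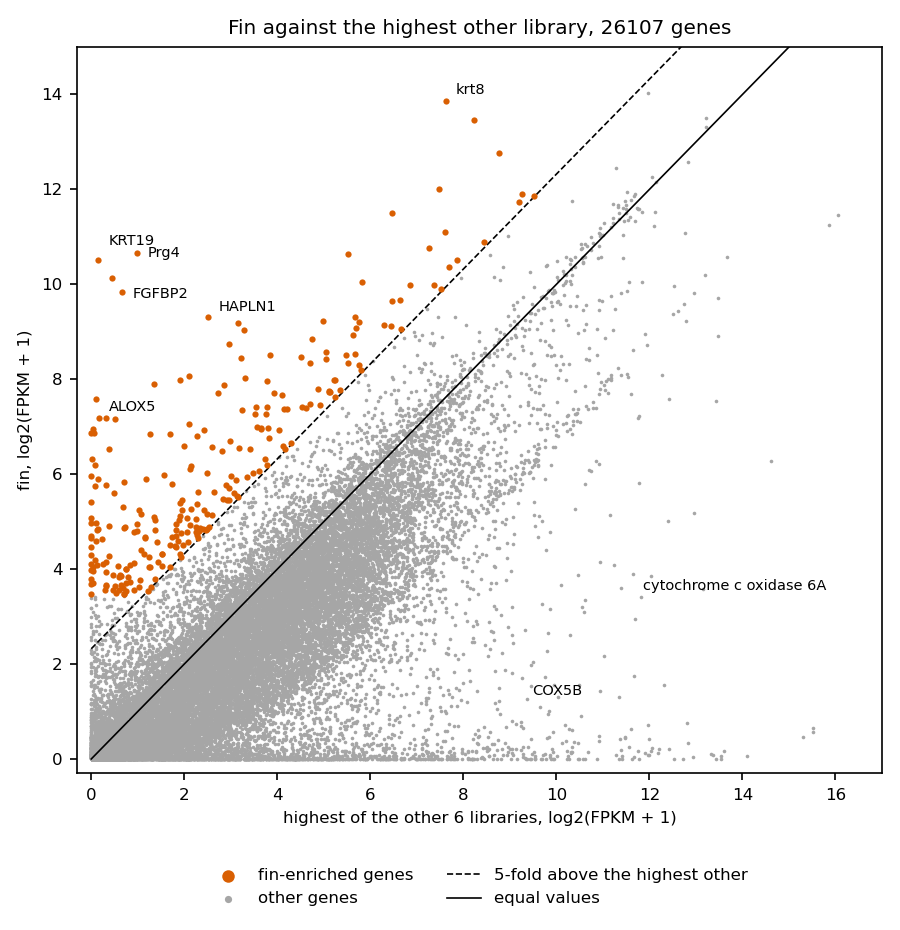
Each point is 1 of 26107 genes, with the highest of the other 6 libraries on the horizontal axis and fin on the vertical axis, both as log2(FPKM + 1). The 253 fin-enriched genes are orange and lie above the dashed line of a 5-fold ratio, whereas the labelled cytochrome c oxidase genes lie far below the solid line of equal values.

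KRT19 led by ratio. It had 1465 FPKM in fin, against 0.11 in gill, 0.06 in heart, 0.04 in kidney, 0.03 in the library labelled spleen, and 0 in muscle and liver, a ratio of 1321. Prg4 (Pjo01575), which encodes the lubricating glycoprotein lubricin, had 1615 FPKM in fin, against 0.91 in gill, 0.02 in heart, 0.61 in muscle, 0.98 in kidney, 0.09 in the library labelled spleen and 0.03 in liver, a ratio of 816. FGFBP2 (Pjo14462), of a family of secreted proteins that bind fibroblast growth factors, had 917 FPKM in fin, against 0.58 in gill, 0.06 in heart and 0 in the other 4 libraries, a ratio of 581. In all 3, no other library reached 1 FPKM. A gene for a hypothetical protein (Pjo22526), to which the authors gave no function, stood among them at 1118 FPKM in fin and at most 0.36 FPKM elsewhere.

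The 15 leading genes combined surface filaments, enzymes and matrix proteins. A gene whose nearest protein is a thread biopolymer filament, gamma subunit (Pjo01829), a protein known from the slime threads of hagfish, had 189.8 FPKM in fin and at most 0.08 FPKM elsewhere. ALOX5 (Pjo04074), the 5-lipoxygenase that starts leukotriene synthesis, had 145 FPKM in fin and at most 0.12 FPKM elsewhere. MMP13 (Pjo10738), a collagenase, had 124 FPKM in fin and at most 0.03 FPKM elsewhere. The protease inhibitor gene SERPINB1 (Pjo15890), the water and glycerol channel gene AQP3 (Pjo21235), the chymotrypsin-like gene CTRL (Pjo15596) and the galectin gene Lgals4 (Pjo18481) followed the same pattern, with 144, 116, 142 and 79.3 FPKM in fin and no other library above 0.42 FPKM. HAPLN1 (Pjo05248), the link protein that ties hyaluronan to proteoglycans, was also measured at low levels in gill (4.72 FPKM) and muscle (4.28 FPKM), beside 634 FPKM in fin. A gene of unknown protein (Pjo11347) with the annotated terms ossification and cell adhesion had 238 FPKM in fin and at most 1.53 FPKM elsewhere.

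**Figure D2:**
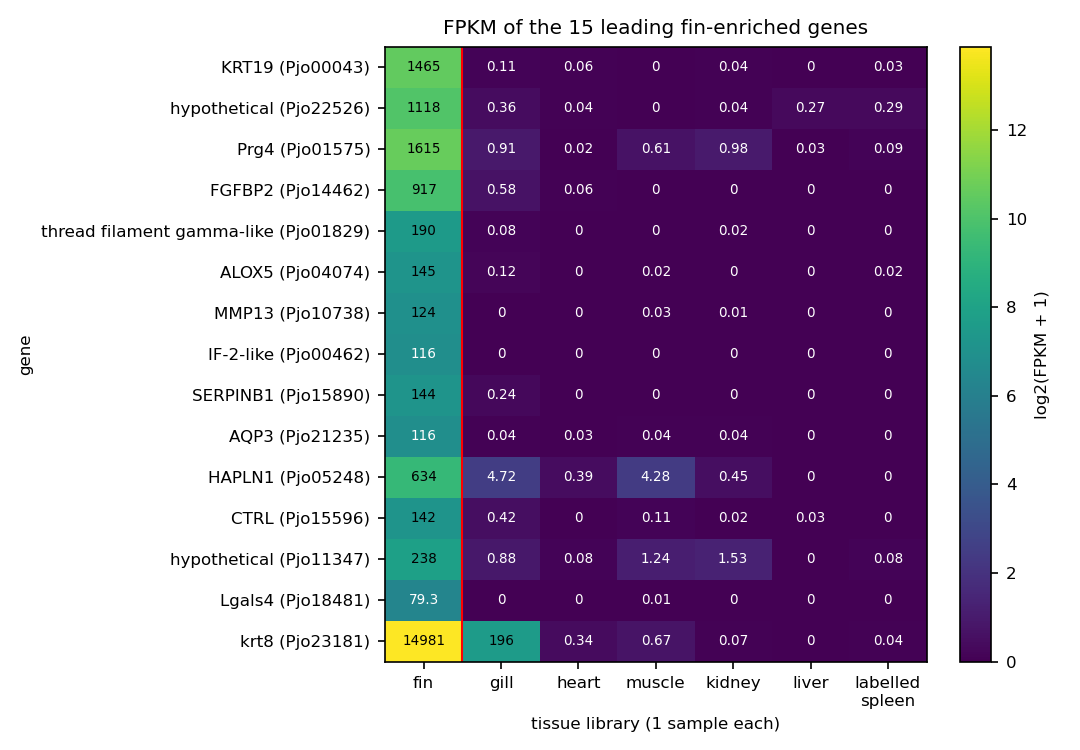
FPKM of the 15 fin-enriched genes with the largest ratio over the highest other library, as numbers in each cell, with the colour giving log2(FPKM + 1) and 1 column per tissue library. Fin is the only bright column, and krt8 is the only gene of the 15 with another library above 100 FPKM, at 196 in gill.

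The most abundant transcript of fin came from a gene for a hypothetical protein (Pjo16466) that resembles ictacalcin, a calcium-binding S100 protein known from catfish skin. It had 16711 FPKM in fin, against 4022 in gill, 483 in heart, 181 in muscle, 1013 in kidney, 95.5 in the library labelled spleen and 79.9 in liver. At a ratio under 5 it was not called fin-enriched, although fin was the highest of the 7. The keratin gene krt8 (Pjo23181) came next with 14981 FPKM in fin, against 196 in gill and under 1 FPKM in the other 5 libraries. A lipocalin-like gene (Pjo23951), of a family of small carriers of greasy molecules, had 11270 FPKM in fin, against 297 in gill and at most 29.3 elsewhere. Of the 10 most abundant genes with a symbol or description, 4 were keratin genes, krt8 among them. The translation factor gene eef1a and the ribosomal protein gene RPL23 were of the 10 as well, with at least 2234 and 1439 FPKM in each of the 7 libraries.

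For 167 of the 253 fin-enriched genes, gill was the next library. Muscle was next for 45, kidney for 23, heart for 14, liver for 3 and the library labelled spleen for 1. Gill, the other body surface in the series, thus set the limit for most of the list, and without gill 782 genes were called. Just inside the 5-fold limit lay S100a1 at 5.06, ANPEP at 5.03 and samhd1 (Pjo00078) at 5.02, and just outside it lay NFKBIZ, Ackr4 and AZGP1 at 4.99 each.

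Gene lists by role were then read against the background of the table. Fin was the highest of the 7 libraries for 18.9% of all genes. The median difference over all genes was 0.29 between fin and the mean of the other 6, and -0.69 between fin and the highest of them. Rescaling each library by its median ratio to the geometric mean of all 7 moved these to -0.05 and -0.91. A list is therefore described by its distance from these medians. Over the 21151 genes with at least 1 FPKM in some library, the medians without rescaling were 0.46 and -0.99. List medians take in members under 1 FPKM, as the medians over all genes do. Against the mean, the mucus, cartilage, pigment and endothelium lists lay between 0.29 and 0.46. The lists were chosen with earlier results of these data known, and of the 253 fin-enriched genes 68 belonged to any of the 30 lists.

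Junction genes of the epidermis stood furthest above the background. In the list of desmosome and hemidesmosome genes, the junctions that hold epidermal cells to each other and to the basement membrane, fin was highest for 24 of 38 genes and 7 were fin-enriched. The list's median difference was 3.49 against the mean and 0.64 against the highest other library, the largest of the 30 lists on both measures. The anchoring genes were the most skewed toward fin. COL17A1 (Pjo13553), a transmembrane collagen of hemidesmosomes, had 584 FPKM in fin, against 7.96 in gill and at most 0.1 elsewhere. The integrin partners ITGA6 (Pjo00654) and Itgb4 (Pjo09329) had 602 and 586 FPKM in fin, against 30.4 and 53.2 FPKM in gill and at most 2.01 FPKM in the other 5 libraries.

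Desmosome genes were high in both surface tissues. Dsc1 (Pjo19824), a desmosomal cadherin, had 556 FPKM in fin and 85.6 FPKM in gill, and the plakophilin gene PKP1 (Pjo07113) had 252 FPKM in fin and 37.0 FPKM in gill. Both passed the 5-fold limit. PERP (Pjo13175), a desmosomal membrane protein, had 2084 FPKM in fin and 495 FPKM in gill, a ratio of 4.21 that did not. Some copies followed another tissue: Itga6 (Pjo09658) had 1.43 FPKM in fin and 58.1 FPKM in heart, and Pkp3 (Pjo07852) had 2.65 FPKM in fin and 30.4 FPKM in heart.

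Keratins and other surface filaments formed the most abundant epidermal group. Their 46 genes held 4.73% of the summed FPKM of fin, against 1.66% in gill and at most 0.0686% elsewhere. Fin was highest for 21 of the 46 and gill for 17, and 9 were fin-enriched. The median difference was 2.68 against the mean but -0.06 against the highest other library. Besides KRT19 and krt8, krt13 (Pjo18838) had 6959 FPKM in fin and 437 FPKM in gill, while Krt17 (Pjo22082) had 5598 FPKM in fin and 2481 FPKM in gill, a ratio of 2.26. TGM5 (Pjo06239), a transglutaminase that crosslinks the epidermal surface, had 114 FPKM in fin and 2.24 FPKM in gill. In the other direction, a pair of cornifelin genes named cnfn-b was nearly confined to gill, with 0 and 0.53 FPKM in fin (Pjo08108 and Pjo08107) against 659.55 and 1283 FPKM in gill and at most 0.14 FPKM elsewhere.

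Regulators of epidermal identity were shared with gill more than they were particular to one of them. Of 41 genes, fin was highest for 19 and gill for 15, and the median difference was 2.996 against the mean and -0.12 against the highest other library. TP63 (Pjo06674), the transcription factor of basal epidermal cells, had 195 FPKM in fin, against 36.5 in gill, 2.64 in heart, 6.33 in muscle, 7.24 in kidney, 0.43 in the library labelled spleen and 0.3 in liver. With KLF5 (Pjo00610; 94.2 FPKM in fin and 5.03 in gill) and TFAP2A (Pjo24059; 13.3 FPKM in fin and 0.74 in gill) it made up the 3 fin-enriched genes of the list. The epithelial adhesion gene Epcam (Pjo13285) had 2940 FPKM in fin against 4472 FPKM in gill, and Klf4 (Pjo21559) had 406 FPKM in fin against 354 FPKM in gill.

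Several fin-enriched genes belong to small families of secreted or surface proteins, which were picked by name after their values were seen. The 2 thread biopolymer genes, the second (Pjo21066) named for the alpha subunit, summed to 244 FPKM in fin, against 0.08 in gill, 0.17 in muscle, 0.27 in kidney and 0 in the other 3 libraries. Uroplakins, known from the stiff surface membrane of the mammalian bladder, were represented by a uroplakin-2-like gene (Pjo05041) with 1737 FPKM in fin and 151 FPKM in gill, and by Upk1a (Pjo15999) with 634 FPKM in fin and 50.2 FPKM in gill. Both lie under 3 FPKM in the other 5 libraries. The avidin-related genes AVR1 (Pjo24214 and Pjo24213) had 1017 and 325 FPKM in fin against 165 and 44.7 FPKM in gill. A pair of neighbouring identifiers whose nearest named proteins are pore-forming toxins of sea anemones had 818 FPKM (Pjo03381) and 805 FPKM (Pjo03382) in fin, against 98.3 and 87.5 FPKM in gill and at most 5.73 FPKM elsewhere. For the thread genes no other library was above 0.25 FPKM, and for the uroplakin, avidin-related and toxin-like pairs gill was the only other library above 10 FPKM.

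Of 16 listed genes of mucous, club and alarm cells, gill was highest for 12 and fin for 4. Fin was thus highest for 25%, against 18.9% of all genes. None was fin-enriched, but 16 genes are too few to set this apart from the 0.969% of all genes. Only 8 of the 16 reached 1 FPKM in any library, so several of these ranks rest on values near 0. Lists match symbols, so a mucin-5AC-like gene with no symbol (Pjo00290) lies outside this one. AGR3 (Pjo10336), a folding factor of secretory cells, had 267 FPKM in fin against 181 FPKM in gill, and its relative agr2 (Pjo19390) had 135 FPKM in fin against 215 FPKM in gill. A Muc2 locus outside the named annotation, for a gel-forming mucin, had 8.75 FPKM in fin against 44.3 FPKM in gill.

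The dermis was the next group. Among 42 collagen genes fin was highest for 21 and 8 were fin-enriched, with a median difference of 1.46 against the mean and 0.07 against the highest other library. They held 0.236% of the summed FPKM of fin, against 0.0647% in gill and at most 0.0301% elsewhere. COL1A1 (Pjo13087), the main chain of fibrillar collagen in skin and bone, had 380.4 FPKM in fin, against 11.6 in gill, 12.9 in heart, 32.2 in muscle, 4.02 in kidney, 1.56 in the library labelled spleen and 1.47 in liver. Its second copy (Pjo03634) had 362 FPKM in fin and at most 43.5 FPKM elsewhere, and col1a2 had 342 FPKM in fin and at most 31.9 FPKM elsewhere. For these 3 chains muscle, not gill, was the next library. COL12A1 (Pjo20513), which sits on the surface of collagen fibrils, COL6A3 (Pjo10016), of the fine filaments around cells, COL7A1 (Pjo06859), of the anchoring fibrils under the epidermis, and COL5A1 (Pjo21403), which starts fibrils, were 8.72-fold to 11.2-fold higher in fin than in the highest other library. The basement membrane chain gene COL4A1 (Pjo09809), singled out after its values were seen, had 35.5 FPKM in fin and 101 FPKM in gill. Under median-of-ratios scaling the list's median against the highest other library became -0.099.

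The enzymes that make collagen lay nearer the background than the chains. Of 46 genes fin was highest for 11, or 23.9% against 18.9% of all genes, and none was fin-enriched. The median difference was 0.54 against the mean and -0.35 against the highest other library, beside 0.29 and -0.69 over all genes. Under median-of-ratios scaling the list's median against the mean became -0.000915. The collagen chaperone gene SERPINH1 (Pjo10743) had 66.0 FPKM in fin, 49.5 in heart and 30.7 in gill. The prolyl hydroxylase subunit gene P4HA2 (Pjo20657) had 47.1 FPKM in fin against 244 FPKM in heart. Lox (Pjo11171), which crosslinks collagen, was the clearest exception among those named, with 58.1 FPKM in fin against 17.5 FPKM in muscle.

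Small proteoglycans and matrix glycoproteins were second only to the desmosome list against the highest other library. Of 74 genes fin was highest for 42 and 10 were fin-enriched, with a median difference of 1.79 against the mean and 0.39 against the highest. Besides Prg4 and HAPLN1, LUM had 527 FPKM in fin, against 1.4 in gill, 2.29 in heart, 8.73 in muscle, 0.1 in kidney and 0 in liver and the library labelled spleen. Dpt (Pjo06682), which encodes the dermal matrix protein dermatopontin, had 93.4 FPKM in fin and at most 8.04 FPKM elsewhere. SPARC (Pjo14147), a collagen-binding protein of bone and dermis, had 469 FPKM in fin and 104 FPKM in gill, a ratio of 4.46. A second Prg4 gene (Pjo20245) was a liver gene, with 19.3 FPKM in fin against 261 FPKM in liver.

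Several genes of thrombospondins, which bind matrix and growth factors, were high in fin. The family was examined after its members' values were seen, so its counts only describe it. Fin was highest for 6 of 9 genes, against 18.9% of all genes, and 3 were fin-enriched, against 0.969%. Of the others, thbs3a had 10.25 FPKM in fin and 10.35 FPKM in muscle, and thbs3b and thbs4 had 0.31 and 0.2 FPKM in fin. THBS1 (Pjo16952) had 325 FPKM in fin, against 7.79 in gill, 25 in heart, 15.6 in muscle, 0.51 in kidney, 3.92 in the library labelled spleen and 4.07 in liver. The tendon-associated gene thbs4b (Pjo05195) had 253 FPKM in fin and at most 2.75 FPKM elsewhere, and THBS2 (Pjo12504) had 48.4 FPKM in fin and at most 3.9 FPKM elsewhere. The 9 genes summed to 809 FPKM in fin, against 76.1 in gill and 53.1 in muscle.

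Regulators of fibroblasts and mesenchyme had 4 fin-enriched genes among 41, with fin highest for 21. The retinoic acid binding protein gene CRABP2 (Pjo16616) had 259 FPKM in fin, against 8.96 in gill and at most 1.56 elsewhere, and a second copy (Pjo18955) had 26.7 FPKM in fin against 3.77 in gill. Prrx1 (Pjo01586) and TWIST1 (Pjo23286), transcription factors of limb and fin mesenchyme, had 33.4 and 26.4 FPKM in fin and at most 1.55 and 0.9 FPKM elsewhere. The list's median difference was 1.26 against the mean and 0.04 against the highest other library, and the second became -0.49 under median-of-ratios scaling.

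Bone genes were present at moderate levels. Of 31 genes of bone and scale forming cells fin was highest for 14 and 4 were fin-enriched, with a median difference of 1.34 against the mean and -0.03 against the highest other library. The osteocalcin gene bglap (Pjo02408), made by mature bone cells, had 38.8 FPKM in fin, against 0.61 in gill, 0.06 in heart, 0.21 in muscle, 0.15 in kidney, 0.32 in the library labelled spleen and 0.52 in liver. Its relative mgp (Pjo02409), a calcification inhibitor, had 218 FPKM in fin, against 36.0 in gill and 39.5 in the library labelled spleen. ENTPD5 (Pjo17598), needed for bone mineral in zebrafish, had 15.9 FPKM in fin and at most 0.09 FPKM elsewhere, and the homeobox gene dlx3b (Pjo12964) had 107 FPKM in fin and 13.2 FPKM in gill. A pair of signals was high in gill instead: bmp2 (Pjo18514) had 0.86 FPKM in fin against 159 FPKM in gill, and SOST (Pjo12569), singled out after its values were seen, had 4.68 FPKM in fin against 162 FPKM in gill.

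Genes of bone resorption were split between libraries, with fin highest for 10 of 23, kidney for 7, gill for 5 and muscle for 1. All 3 fin-enriched genes of the list were copies of MMP13, with 124, 52.9 and 10.2 FPKM in fin (Pjo10738, Pjo10736 and Pjo10739) and at most 0.05 FPKM elsewhere. Acp5 (Pjo06341), the acid phosphatase of bone-resorbing cells, had 75.9 FPKM in fin against 608 FPKM in muscle and 314 FPKM in kidney. Gill had 2.5 FPKM of it, liver 5.69, heart 16.9 and the library labelled spleen 27.4. Its ratio of fin to muscle, 0.126, lay within the range of the egg coat and oocyte genes, 0.0702 to 0.178. Whether the Acp5 level in fin came from bone-resorbing cells or with egg transcripts was not tested. MMP9 (Pjo09090), also made by granulocytes, had 74.5 FPKM in fin against 211 FPKM in kidney. Cartilage and tendon genes stayed near the background against the mean, with a median difference of 0.34. Against the highest other library the median was -0.20, beside -0.69 over all genes. Fin was highest for 11 of the 30, or 36.7% against 18.9% of all genes. The 1 fin-enriched gene of this list was Cilp (Pjo21946), at 31.9 FPKM in fin and at most 2.71 FPKM elsewhere.

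Posterior Hox genes were often highest in fin, at low levels and in many cases by a small margin. The table names 43 Hox genes, which mark positions along the body axis. In groups 9 to 13, the posterior end of the clusters, fin was highest for 15 of 20 genes, whereas in groups 1 to 8 it was highest for 2 of 23, a split made after the values were seen. Fin was highest for 18.9% of all genes. Of the posterior genes 17 reached 1 FPKM in some library, and of the anterior genes 14. Several of the 15 leads were small, with ratios of 1.04 for hoxc10a (Pjo22741), 1.17 for hoxa13b and 1.23 for hoxc11a (Pjo22746). The posterior genes summed to 117 FPKM in fin, against 5.22 in gill, 26.1 in heart, 47.5 in muscle, 33.4 in kidney, 3.05 in the library labelled spleen and 0.45 in liver. The anterior genes summed to 18.1 FPKM in fin, against 51.0 in gill and 33.5 in kidney.

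The 2 fin-enriched Hox genes belong to the last group. The gene hoxa13a (Pjo19092) had 28.6 FPKM in fin, against 0.27 in gill, 0.49 in heart, 0.65 in muscle, 0.16 in kidney, 0.41 in the library labelled spleen and 0 in liver, and hoxc13a (Pjo22748) had 15.1 FPKM in fin and at most 0.69 FPKM elsewhere. The partner copy hoxa13b (Pjo16674) was nearly as high in heart, with 29.6 FPKM in fin, 25 in heart, 15.9 in muscle and 11.3 in kidney. The other members were low, with 1.69 FPKM in fin for hoxc13b (Pjo11502) and 0 for hoxb13a (Pjo03646). In the group before it, hoxc12a (Pjo22747) had 11.3 FPKM in fin against 7.33 FPKM in muscle. The transcription factor gene sp9 (Pjo09676), which acts in the growing rim of fin and limb buds, had 11.7 FPKM in fin and at most 0.25 FPKM elsewhere. Some genes known from the paired fins were near 0 in fin and higher in heart. The gene hand2 (Pjo00571) had 0.09 FPKM in fin against 48.6 FPKM in heart, and TBX5 (Pjo05773) had 0.16 FPKM in fin against 12.8 FPKM in heart. Not every gene of the list was so low: TBX3 (Pjo04919) had 5.11 FPKM in fin and at most 2.21 FPKM elsewhere. Its second copy (Pjo05659) had 0.34 FPKM in fin against 7.9 FPKM in the library labelled spleen.

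**Figure D3:**
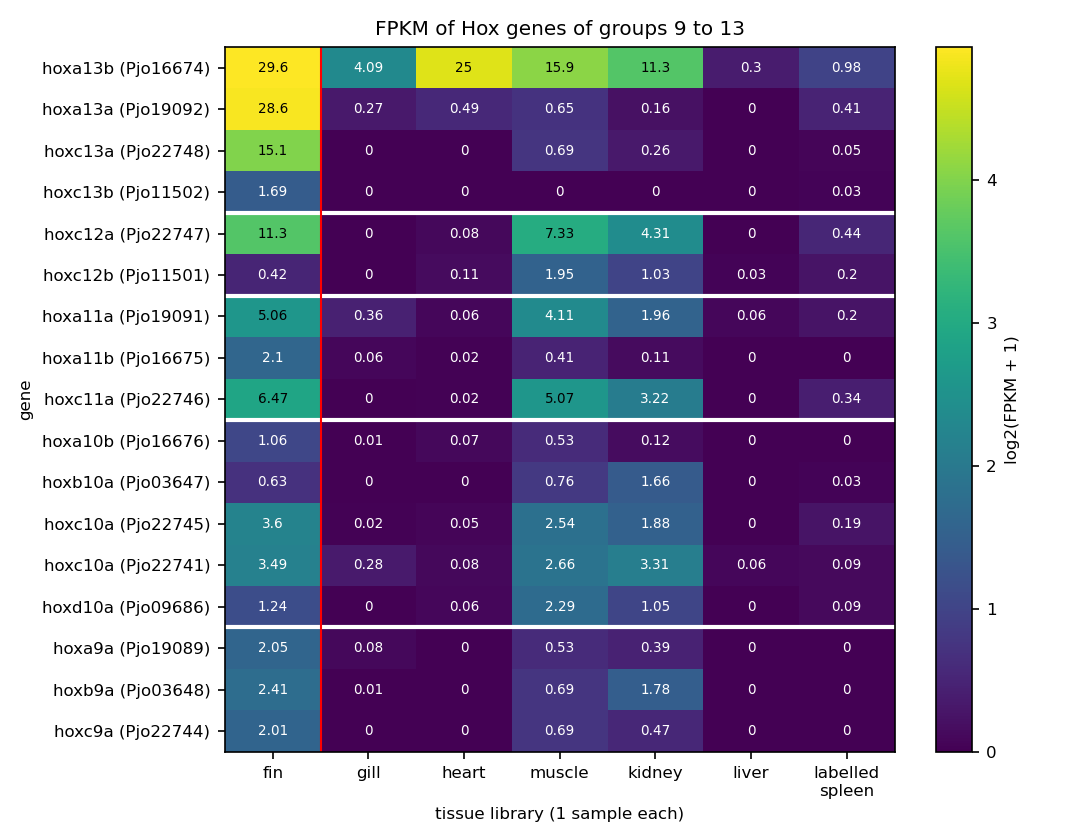
FPKM of the 17 Hox genes of groups 9 to 13 that reached 1 FPKM in any library, sorted from group 13 at the top to group 9, with 1 column per tissue library and white lines between groups. Fin has the highest value in most rows, with muscle and kidney at lower values in many of them, and hoxa13b is also high in heart.

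Signalling genes lay modestly above the background in their median and were more often highest in fin than all genes. Of 104 genes of growth and regeneration signals fin was highest for 39, or 37.5% against 18.9% of all genes, and 4 were fin-enriched. The median difference was 0.56 against the mean and -0.33 against the highest other library, beside 0.29 and -0.69 over all genes. Besides FGFBP2, the heparin-binding growth factor gene mdk-a (Pjo07747) had 124 FPKM in fin and at most 12.97 FPKM elsewhere. TGFB2 (Pjo14592), a ligand of the TGF-beta family, had 27.4 FPKM in fin and at most 1.57 FPKM elsewhere. The WNT antagonist gene wif1 (Pjo04467) had 20.01 FPKM in fin and at most 1.09 FPKM elsewhere. Ligands and receptors of the fibroblast growth factor family in the list reached at most 15.2 FPKM in fin, for fgfr4 (Pjo20811). A copy of the growth factor gene igf2 (Pjo24444) and the hedgehog ligand gene IHH (Pjo22899) were among the lowest, with 1.4 and 0.13 FPKM in fin against 656 FPKM in the library labelled spleen and 41.1 FPKM in heart.

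Among 54 matrix proteases and inhibitors fin was highest for 18, or 33.3% against 18.9% of all genes. The median difference was 0.96 against the mean and -0.80 against the highest other library, beside 0.29 and -0.69 over all genes. The list held 0.432% of the summed FPKM of fin, 0.532% in muscle and 0.628% in kidney. Fin-enriched genes numbered 5, where 0.969% of all genes were called, and 3 of the 5 were the MMP13 copies already named. The other two were inhibitors: a Timp2 locus had 249.6 FPKM in fin against 12.7 FPKM in gill, and a TIMP3 locus had 40.7 FPKM in fin against 3.82 FPKM in muscle. A further TIMP3 locus was highest in kidney, with 819 FPKM in fin, 249 FPKM in gill and 1921 FPKM in kidney.

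Immune cell genes were measured in fin, and those of macrophages and granulocytes were below gill. Macrophage and granulocyte genes held 0.367% of the summed FPKM of fin, against 1.06% in gill and 0.487% in kidney. Fin was highest for 6 of 44, or 13.6% against 18.9% of all genes, and none was fin-enriched. The median difference was 1.39 against the mean but -0.81 against the highest other library. The antigen-presentation genes Cd74 (Pjo14686) and CD74 (Pjo20897) had 808 and 701 FPKM in fin against 2025 and 1926 FPKM in gill. The lysozyme gene LYZ (Pjo23827) had 9.24 FPKM in fin against 1573 FPKM in kidney, and 1 MPEG1 copy (Pjo23239) was listed at 0 in fin against 21.4 FPKM in gill. For T, NK and B cells fin was highest for 16 of 56 genes, or 28.6%, and gill for 23, and none was fin-enriched. Lists of 44 and 56 genes are too short to set this apart from the 0.969% of all genes. The list summed to 566 FPKM in fin and 1064 FPKM in gill, but its median level was 2.57 FPKM in fin and 2.17 FPKM in gill. Much of the difference in sum was gata3 (Pjo04269), with 8.37 FPKM in fin and 405 FPKM in gill. The T cell receptor subunit gene CD3E (Pjo15788) had 15.8 FPKM in fin, against 28.2 in gill and 4.57 in kidney, and Gzmb (Pjo10159), a granule protease of killer cells, had 30.7 FPKM in fin against 5.64 FPKM in gill.

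Immunoglobulin variable genes, picked by name after their values were seen, were highest in sum in both surface tissues. The 107 genes summed to 2012 FPKM in fin, against 1622 in gill, 547 in kidney, 278 in muscle, 51.0 in heart, 41.3 in the library labelled spleen and 27.8 in liver. Fin was highest for 55.1% of them and 11 were fin-enriched, or 10.3%. Over all genes these shares were 18.9% and 0.969%. Near-identical copies can share reads, and how the authors divided such reads is not given in the sources used here, so single values are uncertain. The same holds for the 13 genes named for SAMHD1, an enzyme that removes nucleotides in antiviral defence. Fin was highest for 9 of these and 4 were fin-enriched, and they summed to 252 FPKM in fin against 68.0 FPKM in gill.

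Genes of lipid mediators, annexins and S100 proteins stood clearly above the background against the mean, at 1.64, with 7 of 46 fin-enriched. 2 copies of ALOX5 were among them, the second (Pjo04067) with 104 FPKM in fin and 6.95 FPKM in gill. Anxa2 (Pjo24539), a membrane-binding protein, had 1900.5 FPKM in fin, against 256 in gill and 346 in heart. S100A14 (Pjo19287), a calcium-binding protein of epithelia, had 960 FPKM in fin and 181 FPKM in gill. ANXA1 (Pjo05700) was equal in both surface tissues, with 2098 FPKM in fin and 2046 FPKM in gill.

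Pigment genes included a few that fin carried almost alone. Of 46 pigment cell genes fin was highest for 17, or 37.0% against 18.9% of all genes. The median difference was 0.31 against the mean, near the 0.29 of all genes. Against the highest other library it was -0.27, beside -0.69 over all genes. The melanosome genes PMEL (Pjo11469) and tyrp1 (Pjo00853) had 9.39 and 5.26 FPKM in fin and at most 0.05 and 0.02 FPKM elsewhere, both under the minimum of 10 FPKM. SPR (Pjo09515), an enzyme of the yellow pteridine pigments, was the 1 fin-enriched gene of the list, with 16.3 FPKM in fin and 0 in all 6 others. The list of 42 genes of nerve, glia and skin sense organs had a median difference of 0.02 against the mean and -0.15 against the highest other library. Its myelin gene MBP (Pjo19052), 1 of 2 fin-enriched genes of the list, had 45.5 FPKM in fin, 7.83 in muscle and at most 1.31 elsewhere.

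Genes of vessels and ionocytes were seldom highest in fin, at 6.25% and 3.03% of their lists against 18.9% of all genes. Endothelial genes were highest in fin for 2 of 32, with a median difference of 0.43 against the mean and -1.35 against the highest other library. They summed to 494 FPKM in fin, against 891 in gill, 418 in heart and at most 228 elsewhere. One of these 2 was Lyve1 (Pjo07353), a hyaluronan receptor of lymphatic vessels and macrophages, with 252 FPKM in fin against 151 FPKM in gill. CDH5 (Pjo07669), the cadherin of endothelial cells, had 2.46 FPKM in fin, against 27.6 in gill and 28.3 in heart. Smooth muscle and pericyte genes were highest in fin for 5 of 28, or 17.9%, near the share of all genes. That list summed to 504 FPKM in fin, against 1814 in gill, 2990 in heart and at most 326 elsewhere. Ionocyte genes, which mark the salt-transporting cells of gill, held 0.0427% of the summed FPKM in fin and 0.888% in gill. The carbonic anhydrase gene ca2 (Pjo23675) had 0.34 FPKM in fin against 294 FPKM in gill.

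**Figure D4:**
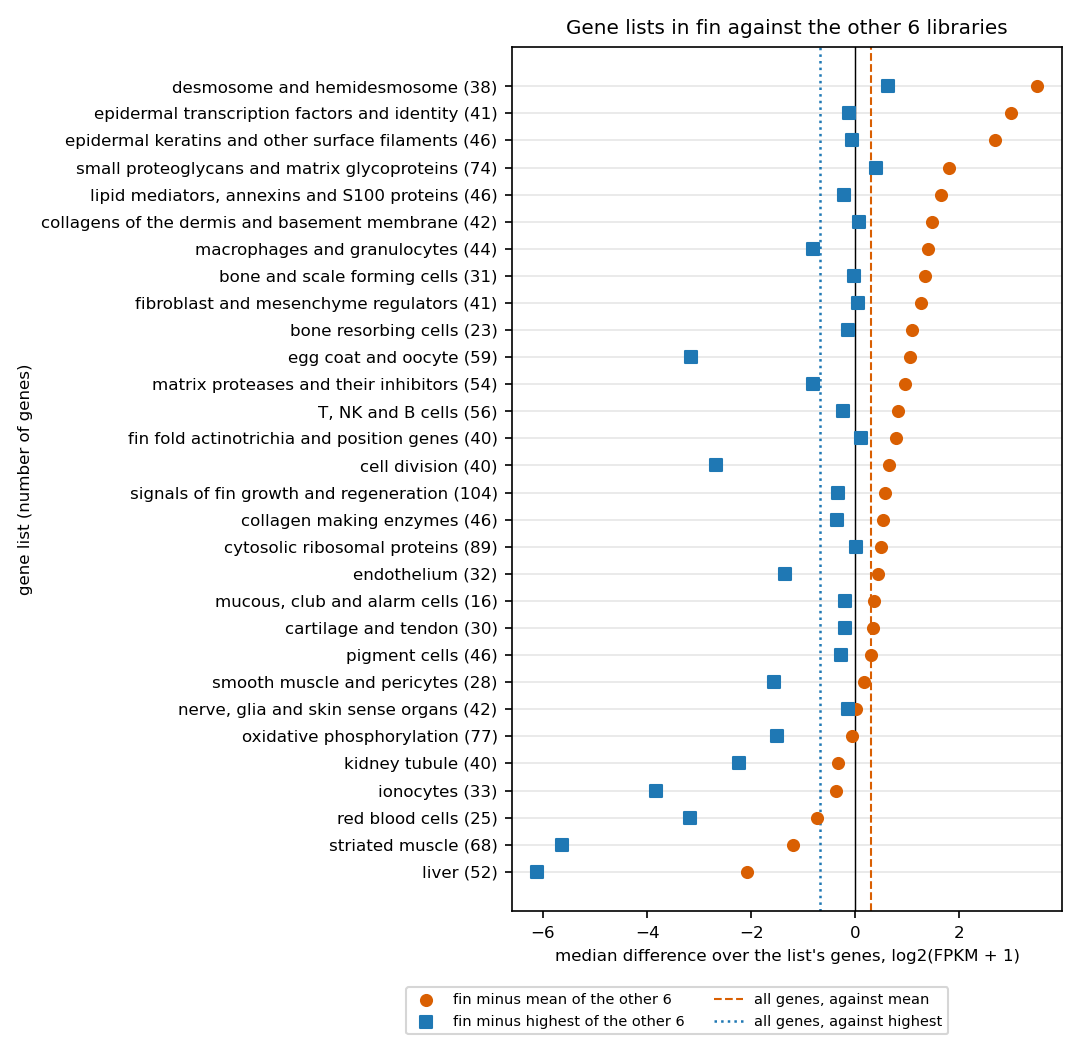
Median difference of fin over the genes of each of 30 lists, on the log2(FPKM + 1) scale, against the mean of the other 6 libraries (circles) and against the highest of them (squares), with the medians of all genes as dashed and dotted lines. Desmosome genes lie furthest to the right at 3.49 and 0.64, and liver genes furthest to the left at -2.08 and -6.11.

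Genes of other tissues were mostly low in fin. Striated muscle genes were highest in fin for 2 of 68, with a list sum of 852 FPKM in fin against 42480 FPKM in muscle and 56711 FPKM in heart. Most of the fin sum was tpm1 (Pjo19024), a tropomyosin, with 793 FPKM in fin against 566 FPKM in muscle. Globin and other red cell genes summed to 5729 FPKM in fin, against 137851 FPKM in kidney and 60913 FPKM in heart, and fin was highest for none of the 25. Liver genes summed to 140 FPKM in fin against 133274 FPKM in liver.

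Egg coat and oocyte genes were an exception. Fin was highest for none of the 59, yet they summed to 9257 FPKM in fin, against 50.1 in gill, 2458 in heart, 80891 in muscle, 46080 in kidney, 4167 in the library labelled spleen and 637 in liver. ZP4 (Pjo20597), a protein of the egg envelope, had 895 FPKM in fin, against 5.53 in gill, 287 in heart, 7937 in muscle, 4787 in kidney, 415 in the library labelled spleen and 64.9 in liver. The ratio of fin to muscle was nearly constant: over the 57 egg genes with at least 10 FPKM in muscle its median was 0.111, with quartiles of 0.0981 and 0.117. For 33 genes of cell division the median ratio was 0.134. The 22 fin-enriched genes with at least 10 FPKM in muscle had a median ratio of 14.2, which the 5-fold rule that chose them makes high by construction. Against the highest other library the 59 egg genes had a median difference of -3.15, and in the plot of fin against that library such genes lie well below the line of equal values.

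The list of cell division genes was highest in fin for 2 of 40, with a median difference of 0.64 against the mean (-0.05 under median-of-ratios scaling) and -2.67 against the highest other library. Its sum was 1210 FPKM in fin, against 7307 in muscle, 4830 in kidney and 434 in gill. As for the egg genes, muscle and kidney had the highest sums, whereas gill, the lowest for the egg genes, was above heart at 306 FPKM and liver at 92.3 FPKM. The part of egg transcripts in the cell division values of fin was not tested.

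Against the mean of the other 6 libraries, 1321 genes were at least 5-fold higher in fin, or 5.06% of all genes. Without liver and the library labelled spleen 973 genes were called, of which 934 were among the 1321. All 253 fin-enriched genes are among the 1321 by construction. Of the other 1068, gill was the highest of the other libraries for 880, and over the whole 1321 gill reached or passed fin for 309. Those with the largest ratio were genes of both body surfaces. CFL2 (Pjo13741), which severs actin filaments, had 1565 FPKM in fin and 378 FPKM in gill, Cd44 (Pjo07605), a hyaluronan receptor, had 497 FPKM in fin and 467 FPKM in gill, and PCSK5 (Pjo04982), a protease that activates secreted proteins, had 453 FPKM in fin and 132 FPKM in gill. None of the 3 passed 3 FPKM in the other 5 libraries. Cldn4, a claudin of tight junctions, was level between them at 1 locus, with 932 FPKM in fin and 905 FPKM in gill, and litaf (Pjo03462) was higher in gill, with 427 FPKM in fin and 488 FPKM in gill.

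Few genes were called low in fin alone. The rule asks for at least 10 FPKM in each of the other 6 libraries. Fin must also be at least 5-fold under the lowest of them. Most genes could not meet the rule, because only 8816 of the 26107 genes reached even 1 FPKM in liver. It called 2 genes, or 0.00766% of all. Both encode subunits of cytochrome c oxidase, the last enzyme of the respiratory chain. COX5B (Pjo13968) had 2.24 FPKM in fin, against 46.4 in gill, 611 in heart, 133 in muscle, 40.0 in kidney, 124 in the library labelled spleen and 109 in liver. The second, a gene of hypothetical protein (Pjo03396) whose other nearest names are subunit 6A, had 13.9 FPKM in fin, against 283 in gill, 3208 in heart, 580 in muscle, 293 in kidney, 603 in the library labelled spleen and 518 in liver.

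In each case another copy was well expressed in fin. COX5B (Pjo10673) had 220.4 FPKM in fin, against 255 in gill, 46.3 in heart, 137 in muscle, 146 in kidney, 24.8 in the library labelled spleen and 16.6 in liver. The other subunit 6A gene (Pjo08863) had 179.9 FPKM in fin, against 218 in gill and at most 120 FPKM elsewhere. Fin thus carried the copies that are low in heart and liver, and little of those that are high there. A Cox7a2 gene (Pjo15231), not called, had 6.7 FPKM in fin against 3320 FPKM in heart and 36.5 FPKM in gill, while its copy (Pjo17787) had 155 FPKM in fin against 63.8 FPKM in heart. Oxidative phosphorylation genes as a whole were highest in fin for 2 of 77, with a median difference of -0.07 against the mean and -1.51 against the highest other library.

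Copies of one name also differed among the fin-enriched genes. Of 160 symbols with a fin-enriched gene, 76 had another copy of at least 10 FPKM in some library, and for 48 of these 76 another copy was highest outside fin. In 6 of the 76 every such copy was fin-enriched, as for AQP3, whose second gene (Pjo05290) had 367 FPKM in fin and 49.6 FPKM in gill. MMP13 had 8 copies, of which 3 were fin-enriched, while Pjo10741 had 33.5 FPKM in fin against 104 FPKM in kidney and Pjo10734 had 9.08 FPKM in fin against 65.0 FPKM in gill. ALOX5 had 7 copies, and Pjo04049 was listed at 0 in fin against 14.4 FPKM in kidney. Of the 5 krt8 genes only Pjo23181 was highest in fin, whereas Pjo23182 had 746 FPKM in fin against 1258 FPKM in gill.

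**Figure D5:**
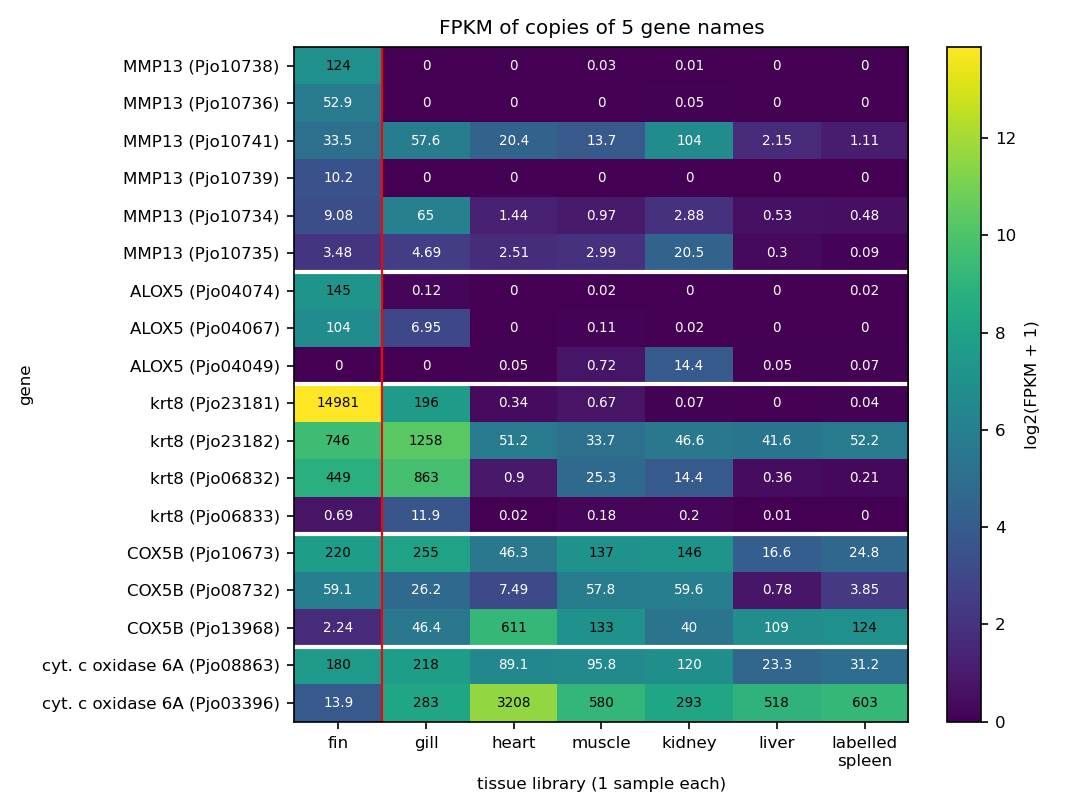
FPKM of the copies of 5 gene names that reached 10 FPKM in any library, as numbers in each cell, with the colour giving log2(FPKM + 1) and white lines between names. MMP13, ALOX5 and krt8 each have 1 or more copies high in fin and others high in gill or kidney, and the cytochrome c oxidase subunits have 1 copy each that is low in fin and high in heart.

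Genes lower in fin than the mean of the other 6 numbered 226, or 0.866% of all. The highest library was the one labelled spleen for 136 of them, heart for 43, liver for 23, muscle for 14, kidney for 6 and gill for 4. The glucose-6-phosphatase gene G6PC1 (Pjo12957) had 0.06 FPKM in fin, against 0.1 in gill, 2492 in the library labelled spleen and 1929 in liver. The creatine kinase gene CKM (Pjo15297) was listed at 0 in fin, against 4760 FPKM in heart and 5878 FPKM in muscle. The mitochondrial carrier gene ucp2 (Pjo00261) had 0.15 FPKM in fin and 0.09 FPKM in gill, against 952 FPKM in liver and 558 FPKM in kidney. Without liver and the library labelled spleen 223 genes were called, but 71 of them were among the 226.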

How the data were processed

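RNA from 7 tissues was extracted with TRIzol and made into libraries with a Vazyme VAHTS kit for MGI sequencing, per the labels' protocols. HISAT2 2.2.1 and RSEM 1.3.3 are named in the submitters' processing notes. For genome build, annotation and the counting of shared reads, nothing is given in these sources. Values were deposited by the authors as FPKM with 2 decimals, 1 column per tissue. Its summed FPKM ran from 552739 in liver to 765084 in kidney, with 713664 in fin. FPKM is relative within a library: where a few genes take much of it (36.3% in the 10 leading genes of liver, 13.0% in fin), all others read lower. Read totals were not given in the table, so no interval or detection limit was computed.

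Values were analysed as log2(FPKM + 1) with Python 3.11.15, numpy 2.4.6 and pandas 2.3.3, and drawn with matplotlib 3.10.9. With 1 sample per tissue no model was fitted. The fin-enriched rule was run on simulated libraries that differed only by small noise and by chosen genes raised in fin. That run checks the working of the rule only, because it held no tissue differences, shared reads or effects of depth. A gene counted as detected at 1 FPKM. The alternatives changed the pseudocount, the minimum FPKM, the fold limit, the scaling and the set of other libraries.

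The members, gene lists and rules were chosen with earlier results of these data known. By a fixed rule, the genes named were the 15 fin-enriched ones of largest ratio, the 10 most abundant, the 10 of largest ratio against the mean that were not fin-enriched, the fin-depleted ones, 3 on each side of the 5-fold limit, and per list the highest, the fin-enriched and the lowest members. Not all of these are printed, and some items are not reported here. Small families and genes named beyond that rule were chosen after their values were seen.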

Additional observations from a re-analysis of the deposited data

How the results depend on the processing

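No paired analysis was possible because each tissue has 1 sample. The count of fin-enriched genes (253) was 145 with a pseudocount of 5, 126 with a minimum FPKM of 50, 435 with a 3-fold limit, 123 with a 10-fold limit, 165 with median-of-ratios scaling and 782 without gill. Of the 165, 164 were among the 253. Genes higher than the mean (1321) numbered 551, 484, 2158, 664 and 682 under the first 5 of these. Genes lower than the mean (226) numbered 373 with a pseudocount of 0.1, 82 with one of 5, 494 with a 3-fold limit, 67 with a 10-fold limit, 406 with median-of-ratios scaling and 368 without muscle and kidney. The 2 fin-depleted genes became 1 with a minimum FPKM of 50, 5 with a 3-fold limit, 8 without gill, 4 without muscle, 4 without kidney, 9 without muscle and kidney, and 4 without liver and the library labelled spleen. The other 40 settings of these 4 counts stayed within 1.5 times. Against the highest other library instead of the mean, the median was negative for 18 lists whose median against the mean was positive. For 7 of these the value against the mean was at least 1: keratins (-0.065), epidermal regulators (-0.12), bone forming (-0.0286) and bone resorbing cells (-0.13), macrophages (-0.81), lipid mediators (-0.21) and egg genes (-3.15). The egg list was also at -1.33 against the log2 of the mean FPKM. Libraries with no replicate and unknown depth limit every value, and low values most.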

Other observations

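Fin-enriched genes outside the 30 lists, singled out after their values were seen, included signals between cells. The peptide hormone gene cck (Pjo19115) had 269 FPKM in fin, against 3.27 in gill, 0.06 in muscle, 0.13 in kidney and 0 in heart, liver and the library labelled spleen. The WNT antagonist gene FRZB (Pjo10328) had 561 FPKM in fin, against 77.2 in gill and at most 7.97 elsewhere. The aromatase gene cyp19a1 (Pjo24979), which makes estrogens, had 18.5 FPKM in fin and at most 0.31 FPKM elsewhere. The chemokine genes CCL25 (Pjo02304) and C-C motif chemokine 28-like (Pjo09511) had 166 and 169 FPKM in fin against 16.7 and 12.7 FPKM in gill, with no other library above 0.12 FPKM.

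Some further fin-enriched genes, also singled out, are known from defence. PTX3 (Pjo18613), a pentraxin that tags microbes, had 115 FPKM in fin, against 0.56 in gill and at most 1.41 elsewhere. The antiviral GTPase gene mx (Pjo24676) had 314 FPKM in fin, against 53.2 in gill and at most 0.05 elsewhere, and the DNA-sensing adaptor gene sting1 (Pjo14574) had 42.9 FPKM in fin against 6.77 FPKM in gill. A copy of the protease inhibitor gene A2ML1 (Pjo15188) had 91.5 FPKM in fin and at most 0.3 FPKM elsewhere. Another (Pjo02640) was highest in muscle, with 137 FPKM in fin against 1446 FPKM in muscle and 859 FPKM in kidney.

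Of 309 genes named as transposons, fin was highest for 14.2%, against 18.9% of all genes. Among them 8 were fin-enriched, or 2.59% against 0.969% of all genes. The 309 genes summed to 1097 FPKM in fin, against 1249 FPKM in gill and 879 FPKM in heart.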
